A study of Homo sapiens with 12 samples.

Results

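The genes described here are 6 transcription factors of the ETS family that act downstream of the kinase ERK: ETV1, ETV4, ETV5, ETS1, ETS2 and ELK3. They were chosen by symbol and matched to their Ensembl identifiers in the deposited tables, where they are 6 of 58302 genes. RNA was measured in 12 libraries of human mesothelioma cells that carry no NF2. The parental line NCI-H226 is sensitive to the TEAD inhibitor GNE-7883 and was given DMSO (vehicle) or GNE-7883. NCI-H226_CL3 is a resistant line that was obtained from it by raising a TEAD inhibitor from 0.25 to 3 µM, and it was likewise given DMSO or GNE-7883. Each of the 4 groups holds 3 libraries, called sensitive or resistant cells in DMSO or GNE-7883 below. All groups share the loss of NF2, and both resistant groups share the selection. How much GNE-7883 the cells finally received, and for how long, is not given in the sources used here. A single resistant line was profiled. Whether replicate libraries came from separate cultures is not stated, so the p-values reflect the spread of these samples alone, and that spread may be technical.

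GNE-7883 blocks TEAD, the DNA-binding partner of the coactivators YAP and TAZ, which NF2 normally restrains through the Hippo pathway. RAS, RAF and MEK kinases activate ERK, and ERK carries growth signals to the nucleus, where ETS factors are among its best known effectors. ETV1, ETV4 and ETV5 form the PEA3 subfamily, whose genes are held silent by the repressor capicua (CIC) until ERK signalling removes it. ETS1 and ETS2 are phosphorylated by ERK next to their Pointed domain, which raises their binding to the coactivators CBP and p300. ELK3 is a ternary complex factor that binds DNA beside serum response factor (SRF) and is turned from a repressor into an activator by ERK. All of them bind DNA around a GGAA core.

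Windows around annotated transcription starts (250 bases before to 50 after, RefSeq, GRCh38.p14) were found for 3 of the 6 genes, ETV1, ETS2 and ELK3, with 10 windows in all. They are shown because the genes are grouped here by who is known to regulate them, and the windows give the letters such factors are described to read. The windows were searched on both strands for the capicua octamers TGAATGAA, TCAATGAA, TGAATGGA and TCAATGGA, the ETS core GGAAGT, its longer form CCGGAAGT, the TEAD site GGAATG and the AP-1 site TGANTCA. CCGGAAGT contains GGAAGT, so both searches find that longer form. Capitals mark the matches.
ETV1, chr7:13991376-13991675, minus strand: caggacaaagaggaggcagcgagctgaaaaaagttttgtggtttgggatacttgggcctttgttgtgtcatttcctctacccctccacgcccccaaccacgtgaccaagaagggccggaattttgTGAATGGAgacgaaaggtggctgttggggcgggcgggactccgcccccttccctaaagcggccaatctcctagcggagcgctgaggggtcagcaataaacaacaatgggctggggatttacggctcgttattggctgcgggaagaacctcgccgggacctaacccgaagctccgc
ELK3, chr12:96255248-96255547, plus strand: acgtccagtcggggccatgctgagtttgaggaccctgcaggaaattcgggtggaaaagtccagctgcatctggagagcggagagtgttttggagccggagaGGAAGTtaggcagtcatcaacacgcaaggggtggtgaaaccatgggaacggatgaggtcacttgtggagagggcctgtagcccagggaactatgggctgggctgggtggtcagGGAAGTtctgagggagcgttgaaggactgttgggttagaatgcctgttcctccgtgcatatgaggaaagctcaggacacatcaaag
ETS2, chr21:38805679-38805978, plus strand: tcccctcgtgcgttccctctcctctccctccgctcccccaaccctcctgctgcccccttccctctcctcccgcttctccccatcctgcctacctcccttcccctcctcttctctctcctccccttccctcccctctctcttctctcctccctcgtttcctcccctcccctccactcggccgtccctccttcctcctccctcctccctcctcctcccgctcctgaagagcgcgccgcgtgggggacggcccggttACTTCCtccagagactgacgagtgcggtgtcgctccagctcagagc
Positions are counted from the transcription start. Of the 10 windows, 6 belong to ETV1, 2 to ELK3 and 2 to ETS2, and the windows printed are 3 of the 4 that held a match. The printed ETV1 window holds the capicua octamer TGAATGGA, with its first base at -125. That octamer is in 1.03% of 35116 windows of the same length from all genes, and any of the 4 octamers is in 3.77%. These shares are per window, while 10 windows were searched here. Another ETV1 window, chr7:13989617-13989916 on the minus strand, holds GGAAGT at 25. The printed ELK3 window holds GGAAGT at -149 and -36. The other ELK3 window, chr12:96194125-96194424, which spans the annotated start of the gene, holds no match. The printed ETS2 window holds GGAAGT on the other strand, as ACTTCC, at 5, and the other ETS2 window holds no match. The ETS core is a common string, found in 22.8% of all windows. A match is a description of letters and says nothing of binding in these cells.

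ETV1 (ENSG00000006468, chromosome 7, 13891228 to 13991425), ETV4 (ENSG00000175832, chromosome 17, 43527844 to 43579620), ETV5 (ENSG00000244405, chromosome 3, 186046308 to 186110318) and ETS1 (ENSG00000134954, chromosome 11, 128458761 to 128587558) lie on the minus strand in GENCODE release 29 on GRCh38. ETS2 (ENSG00000157557, chromosome 21, 38805307 to 38824955) and ELK3 (ENSG00000111145, chromosome 12, 96194382 to 96269835) lie on the plus strand. Summed over the 12 libraries, the genes received 43 reads for ETV1, 10953 for ETV4, 24197 for ETS2, 32423 for ETV5, 68842 for ELK3 and 149644 for ETS1. The kit does not mark strand. ETV4 shares 68 of its 3607 exon bases with DHX8 on the opposite strand, and DHX8 was not called in any of the 6 comparisons made here, with group means between 80.9 and 88.0 CPM (read counts scaled to library size with TMM factors). ETV5 shares 164 of 5802 exon bases with DGKG, which had 642 reads over all libraries.

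Total counts per library ran from 31878934 to 46962645. Sensitive DMSO replicate 2 stood apart: its counts differed from replicates 1 and 3 of its group with a chi-square per degree of freedom of 35.7 and 41.2, against 3.13 between replicates 1 and 3 and 3.28 to 10.3 in the other groups. Some results for the ETS genes are also given without this library. The values of the other gene lists are given only with it. Markers were counted as present where the mean of at least 1 group reached 1 CPM. All 10 mesothelial markers did so, although HP was at 0.0174 and 0.0784 CPM in resistant DMSO and GNE-7883, and the sum of the markers was 2453 to 2817 CPM in sensitive DMSO and 3610 to 3811 in sensitive GNE-7883, against 1034 to 1147 and 1385 to 1517 for the resistant line. Of 9 lung epithelial markers only CDH1 reached that mean (SFTPB was at 1.09 CPM in a single sensitive GNE-7883 library), although the tissue label names lung epithelium. Of 9 blood markers, CD14 and ITGAM reached it while CD3E and CD68 were at 0 and PTPRC was below 1 CPM. The blood sum was 7.50 to 8.31 CPM in sensitive DMSO and 21.0 to 21.8 in sensitive GNE-7883, against 2.93 to 3.61 over both resistant groups. Of 8 endothelial markers PECAM1, CDH5, TEK and CLDN5 were below 1 CPM, and the sum ran from 114 to 118 CPM in sensitive DMSO and from 217 to 228 in sensitive GNE-7883, against 109 to 130 over both resistant groups. The mitochondrial share of counts was 0.556% ± 0.0568, 1.01% ± 0.0732, 0.604% ± 0.0698 and 0.656% ± 0.0398 (SD, n = 3) in sensitive cells (DMSO, then GNE-7883) and in resistant cells (DMSO, then GNE-7883). The part of these shifts in the results below was not tested.

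In DMSO, all 5 of the genes with enough reads to test were higher in resistant than in sensitive cells. Among these 5, the PEA3 genes ETV4 and ETV5 had the largest differences, followed by ELK3, ETS1 and ETS2. A gene is called here at an adjusted p below 0.05 in edgeR's quasi-likelihood test, adjusted over all 18035 genes tested, of which 48.7% were called in this comparison, 24.2% higher and 24.4% lower. The median log2 difference was 1.38 over the 5 genes and -0.00 over all genes tested. ETV1 had too few reads to be tested.

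ETV4 had the largest log2 difference of the 5 tested genes. It was at 10.2, 10.8 and 10.6 CPM in sensitive DMSO replicates 1 to 3 and at 35.7, 42.8 and 38.4 CPM in resistant DMSO. Every resistant library lay above every sensitive one. The log2 difference was 1.89 ± 0.088 (SE, edgeR, adjusted p = 5.90e-11).

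ETV5, its close relative, was at 33.7, 31.1 and 31.8 CPM in sensitive DMSO and at 108, 103 and 110 CPM in resistant DMSO. The ranges were again far apart, with little spread inside either group. Its log2 difference was 1.73 ± 0.057 (edgeR adjusted p = 8.04e-13).

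ETV1 was barely detected in all groups. Its raw counts were 1, 1 and 0 in sensitive DMSO, 0, 2 and 1 in sensitive GNE-7883, 4, 10 and 5 in resistant DMSO, and 5, 7 and 7 in resistant GNE-7883. A library with no read allows up to 3 counts, which is 0.0626 to 0.0920 CPM at these depths. Each resistant library had more ETV1 reads than each sensitive library. In DMSO the 19 reads of the resistant cells stand against 2 in the sensitive cells, a depth-corrected ratio of 9.97 with an exact 95% interval of 2.41 to 88.3 that covers counting error only. In GNE-7883 the 19 reads stand against 3, a ratio of 5.59 (1.64 to 29.5). When no filter on low counts was applied, edgeR called ETV1 higher in resistant cells in DMSO (adjusted p = 0.00673) and in GNE-7883 (adjusted p = 0.0268).

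ELK3 was at 84.5, 74.2 and 80.0 CPM in sensitive DMSO and at 206, 205 and 209 CPM in resistant DMSO. The resistant libraries lay within a few CPM of each other, all above the sensitive ones. Its log2 difference was 1.38 ± 0.057 (edgeR adjusted p = 1.41e-11).

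ETS1, the most abundant of the genes, was at 287, 224 and 285 CPM in sensitive DMSO and at 463, 446 and 465 CPM in resistant DMSO. The lowest value, 224 CPM, belonged to the library that stood apart. The log2 difference was 0.79 ± 0.075 (edgeR adjusted p = 3.11e-07), and it was 0.68 without that library.

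ETS2 had the smallest difference, from 44.8, 39.1 and 41.4 CPM in sensitive DMSO to 62.6, 62.4 and 61.1 CPM in resistant DMSO. These ranges did not overlap either. The log2 difference was 0.57 ± 0.058 (edgeR adjusted p = 6.86e-07).

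**Figure D1:**
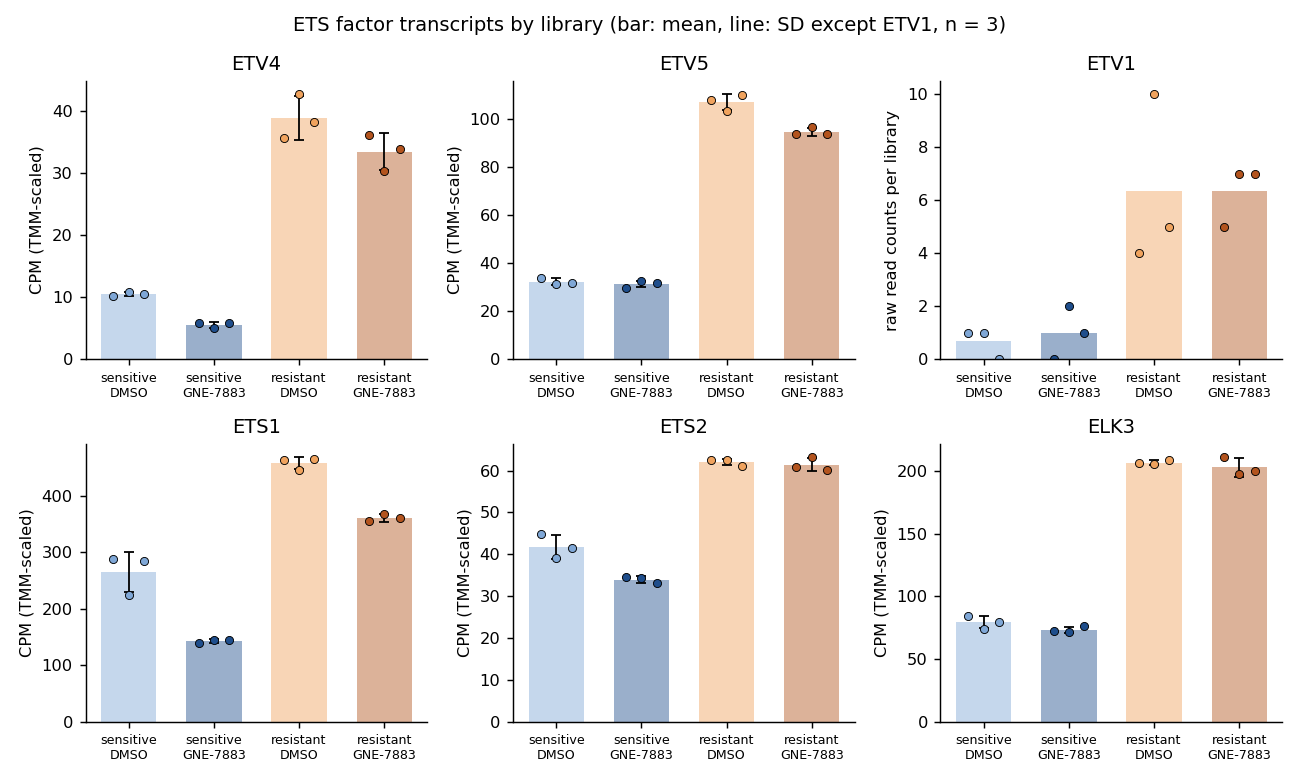
Levels of the ETS genes in the 12 libraries: CPM (TMM-scaled) on the y axis, and raw read counts in the ETV1 panel, with the 4 groups of 3 libraries on the x axis. Points are libraries, coloured bars are group means and black lines are SD (no SD for ETV1). Both resistant groups lie above both sensitive groups in every panel, and ETV4 and ETS1 are lower in GNE-7883 than in DMSO in sensitive cells.

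In sensitive cells GNE-7883 lowered ETV4, ETS1 and ETS2, while ETV5 and ELK3 did not pass the test. ETV4 and ETS1 fell to 0.525 and 0.539 of their DMSO level. These 3 of 5 tested genes stand beside 58.1% of all genes called in this comparison (29.8% higher and 28.4% lower), and the median log2 change was -0.30 over the 5 genes and 0.02 over all genes. ETV4 and ETV5, of the same subfamily, had log2 changes of -0.93 and -0.04, and the difference between these genes was not tested.

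ETV4 went from a mean of 10.5 ± 0.312 to 5.52 ± 0.495 CPM (SD, n = 3), with 5.78, 4.95 and 5.83 CPM in the GNE-7883 libraries. No GNE-7883 library reached the DMSO range. It fell by 0.93 ± 0.10 on the log2 scale (edgeR adjusted p = 8.94e-07). ETV5, in contrast, was at 29.7, 32.3 and 31.8 CPM in GNE-7883, inside or near its DMSO range. Its log2 change was -0.04 ± 0.057 (edgeR adjusted p = 0.547).

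ETS1 was at 139, 145 and 145 CPM in GNE-7883, well below all DMSO libraries. It fell by 0.89 ± 0.076 on the log2 scale (edgeR adjusted p = 5.70e-08), and by 1.005 without the library that stood apart. ETS2 was at 34.5, 34.3 and 33.1 CPM and also lay wholly below its DMSO range. It fell by 0.30 ± 0.059 (edgeR adjusted p = 0.000431). ELK3 was at 72.1, 71.3 and 76.0 CPM, which overlaps its DMSO range. Its log2 change was -0.12 ± 0.057 (edgeR adjusted p = 0.0814), and without sensitive DMSO replicate 2, its lowest DMSO library, ELK3 was called (-0.17, adjusted p = 0.0050).

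In resistant cells given GNE-7883, ETS1 was the 1 gene called of the 5 tested. Across all genes 9.22% were called in this comparison, 5.25% higher and 3.97% lower. The median log2 change of the 5 genes was -0.18, against -0.00 over all genes. ETS1 was at 355, 368 and 360 CPM in GNE-7883, below the 446 to 465 CPM in DMSO, and fell by 0.34 ± 0.075 (edgeR adjusted p = 0.00823). That call was lost without resistant DMSO replicate 1 or 3 or without resistant GNE-7883 replicate 1 or 3, with adjusted p between 0.0525 and 0.0578.

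ETV5 was at 93.7, 96.5 and 93.6 CPM in resistant GNE-7883, which did not overlap the 103 to 110 CPM in DMSO. Its log2 change was -0.18 ± 0.054 and missed the threshold (edgeR adjusted p = 0.0531). ETV4 was at 36.2, 30.3 and 33.9 CPM, overlapping its DMSO libraries, with a log2 change of -0.22 ± 0.082 (edgeR adjusted p = 0.118). Without sensitive DMSO replicate 2, which enters through the shared estimate of the spread, ETV4 and ETV5 were also called (adjusted p = 0.0449 and 0.0116), and 3060 genes were called in place of 1663. ETS2 was at 60.9, 63.2 and 60.1 CPM (log2 change -0.01 ± 0.058, edgeR adjusted p = 0.926). ELK3 was at 211, 198 and 200 CPM (log2 change -0.03 ± 0.056, edgeR adjusted p = 0.836). Both overlapped their DMSO libraries.

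The responses of the lines were compared directly by an interaction term, in which 35.7% of all genes were called, 19% higher and 16.7% lower. Among the 5 genes, 3 were called, all with a response less negative in resistant cells. The difference of the log2 responses, resistant minus sensitive, was 0.71 ± 0.13 for ETV4 (edgeR adjusted p = 0.000484), 0.55 ± 0.11 for ETS1 (adjusted p = 0.000789) and 0.29 ± 0.083 for ETS2 (adjusted p = 0.0134). For ETV5 it was -0.13 ± 0.079 (adjusted p = 0.202) and for ELK3 0.09 ± 0.08 (adjusted p = 0.393), so for these genes a difference in response was not shown.

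With GNE-7883 present, the gap between the lines was 2.60 ± 0.096 on the log2 scale for ETV4 (edgeR adjusted p = 1.60e-12), the widest among the 5 tested genes in these comparisons. It was 1.60 ± 0.057 for ETV5 (1.07e-12), 1.47 ± 0.058 for ELK3 (3.41e-12), 1.34 ± 0.076 for ETS1 (3.30e-10) and 0.86 ± 0.059 for ETS2 (3.27e-09), with edgeR adjusted p in parentheses. All 5 were called, in a comparison that called 61.9% of all genes, 30.7% higher and 31.1% lower. Resistant cells in GNE-7883 also stayed above untreated sensitive cells for all 5, with log2 differences of 1.67 for ETV4, 1.35 for ELK3, 0.56 for ETS2 and 0.44 for ETS1, ETV5 lying between ETV4 and ELK3. There 47.1% of all genes were called, 23.1% higher and 24% lower. These comparisons share libraries with those above, so they are not separate evidence.

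**Figure D2:**
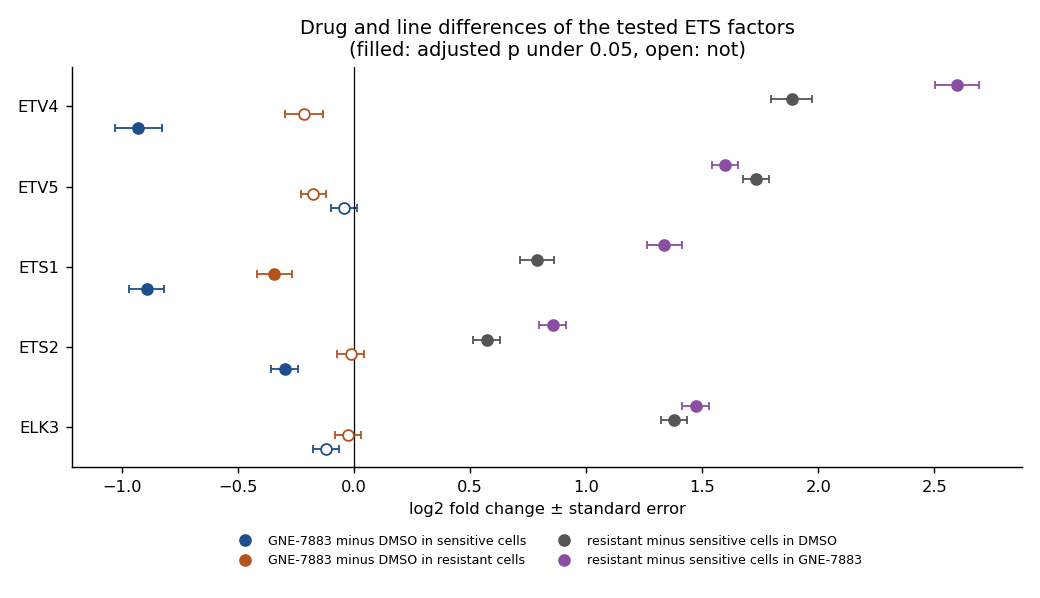
Log2 fold changes (x axis) of the 5 tested ETS genes in 4 comparisons, marked by colour, with bars of 1 SE from edgeR and filled symbols for an adjusted p under 0.05 (open: not). The differences between lines are all above 0, and the response to GNE-7883 is below 0 and larger in sensitive than in resistant cells for ETV4, ETS1 and ETS2.

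The order of the groups therefore differed between genes. ETS1 had 4 separate levels, rising from 143 ± 3.75 CPM in sensitive GNE-7883 through 265 ± 35.8 in sensitive DMSO and 361 ± 6.54 in resistant GNE-7883 to 458 ± 10.5 in resistant DMSO. ETV4 and ETS2 had the same order in sensitive cells, but their resistant groups overlapped: ETV4 at 33.5 ± 2.95 and 38.9 ± 3.56 CPM, and ETS2 at 61.4 ± 1.62 and 62.0 ± 0.812 CPM, in GNE-7883 and DMSO. ELK3 was not called between treatments in either line. It was at 79.6 ± 5.14 and 73.1 ± 2.51 CPM in sensitive and at 207 ± 1.91 and 203 ± 7.34 CPM in resistant cells, DMSO first. In sensitive cells ELK3 was called without sensitive DMSO replicate 2, as given above. For ETV5 the sensitive groups overlapped at 32.2 ± 1.33 and 31.3 ± 1.36 CPM, and the resistant groups, at 107 ± 3.23 and 94.6 ± 1.65 CPM, did not overlap but missed the threshold. Fewer cells of a kind and less RNA per cell cannot be told apart in such bulk libraries.

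Levels of different genes were compared per transcript length, on the authors' RPKM. Of 28 ETS family genes, ETS1 ranked 1 in sensitive DMSO and in both resistant groups, and 3 in sensitive GNE-7883. ELK3 ranked 4, 5, 2 and 2, ETV5 ranked 10, 11, 5 and 5, and ETV4 ranked 15, 16, 10 and 10, in sensitive cells (DMSO, GNE-7883) and then in resistant cells (DMSO, GNE-7883). Together the 6 genes held 38.6% ± 1.58 of the family's summed RPKM in sensitive DMSO and 26.9% ± 0.333 in sensitive GNE-7883, against 56.8% ± 0.689 and 52.3% ± 0.393 in resistant cells in DMSO and GNE-7883 (SD, n = 3). The ranges of the 4 groups did not overlap. The family sum itself was 222, 219, 335 and 319 RPKM. Within pairs, ETV5 stood to ETV4 as 1.98, 3.69, 1.79 and 1.84 to 1, and ETS1 to ETS2 as 4.66, 3.10, 5.43 and 4.32 to 1, in the same order of groups.

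**Figure D3:**
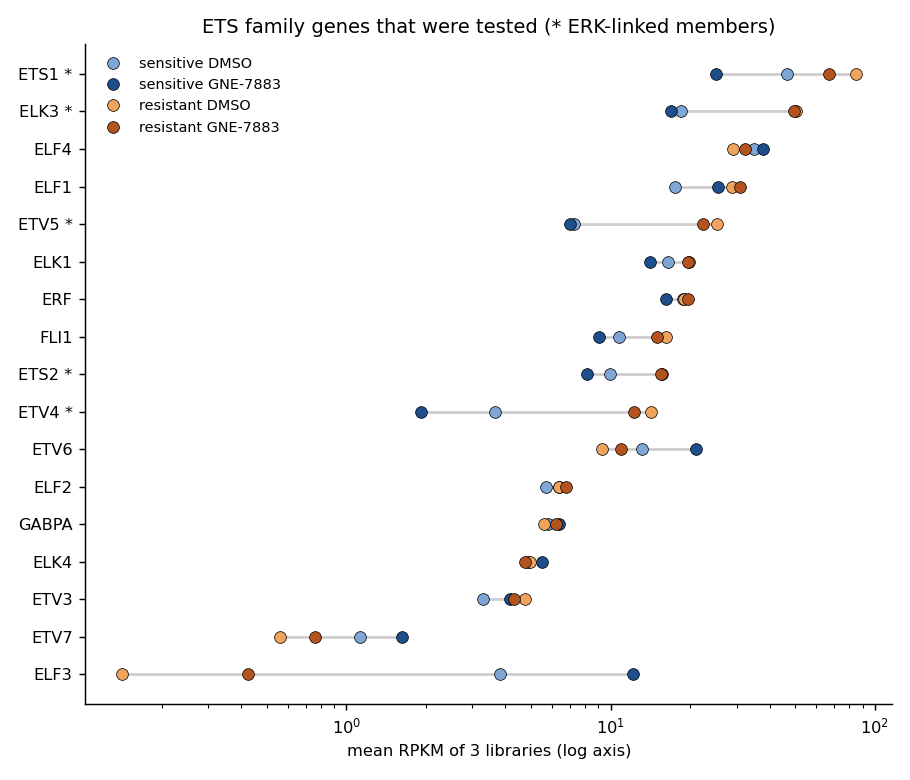
Mean RPKM (log x axis) of the ETS family genes that were tested, 1 row per gene, with the 4 groups as coloured points from the authors' length-normalized table. Asterisks mark the ETS genes downstream of ERK, which with ETV1 make up 38.6% of the family's RPKM in sensitive DMSO and 56.8% in resistant DMSO.

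Of the 22 other ETS genes, 12 could be tested. In DMSO 24.2% of all genes tested were higher and 24.4% lower in resistant cells. Of these 12 ETS genes 4 were higher and 4 lower, with a median log2 difference of -0.05. That contrast with the 5 tested genes described above was not tested. ELF3, an epithelial ETS factor, moved the other way, from 24.1 to 0.850 CPM (log2 difference -4.84 ± 0.11, edgeR adjusted p = 9.17e-15). ETV6, a repressor of the family, was lower in resistant cells by 0.57 ± 0.055 and ELF1 was higher by 0.64 ± 0.067 on the log2 scale. In sensitive cells GNE-7883 raised 6 and lowered 2 of the 12 (median 0.18), against 29.8% higher and 28.4% lower over all genes. ELF3 rose by 1.68 ± 0.072, ETV6 by 0.69 ± 0.054 and ELF1 by 0.54 ± 0.067. In resistant cells 2 rose, ELF3 by 1.59 ± 0.14 and ETV6 by 0.23 ± 0.055, and none fell. There 5.25% of all genes rose and 3.97% fell.

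Of 10 regulators of these factors, 7 were not called between the lines in DMSO, a comparison that called 48.7% of all genes. CIC, the capicua repressor of the PEA3 genes, was at 99.9 and 115 CPM in sensitive cells and at 98.3 and 112 CPM in resistant cells, DMSO first, and was not called in any of the 6 comparisons (edgeR adjusted p from 0.114 to 0.978). ERF, an ETS repressor controlled by ERK, was at 53.9, 46.6, 51.7 and 53.5 CPM and was not called either (adjusted p from 0.101 to 0.954). SRF, the partner of ELK3, rose by 0.18 ± 0.053 in sensitive cells given GNE-7883 (adjusted p = 0.00964), and its response differed between the lines by -0.28 ± 0.075 (adjusted p = 0.00933). The 3 regulators called in DMSO were all higher in resistant cells: EP300, ATXN1 and COP1. Their log2 differences were 0.42 ± 0.15, 0.26 ± 0.093 and 0.22 ± 0.067 (edgeR adjusted p = 0.0241, 0.0287 and 0.0113). EP300 ran from 60.0 to 103.2 CPM in sensitive and from 103.1 to 131.1 CPM in resistant DMSO. ATXN1 ran from 24.5 to 31.4 and from 30.7 to 37.2 CPM, so both overlapped between the lines. These calls are not given without sensitive DMSO replicate 2.

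Genes that report on ERK activity were set beside the ETS factors. Of 16 feedback and output genes, 12 were higher and 1 lower in resistant cells in DMSO, with a median log2 difference of 0.90. Over all genes tested in that comparison 24.2% were higher and 24.4% lower. DUSP6, the phosphatase that switches ERK off, differed by 3.60 ± 0.10, DUSP4 by 2.21 ± 0.066, the AP-1 subunit FOSL1 by 1.90 ± 0.071 and PHLDA1 by 1.70 ± 0.059. The lower one, named after its value was seen, was SPRY1, at -1.67 ± 0.18. DUSP6 and SPRY1 were low, at 1.49 and 3.00 CPM in sensitive DMSO and at 18.2 and 0.944 CPM in resistant DMSO. Of 20 genes of the RAS to ERK cascade itself, 7 were higher and 6 lower, with a median of -0.07. RASA1, a RAS inhibitor, was higher by 0.98 ± 0.073, while the scaffold gene KSR1 was at -0.96 ± 0.079 and the kinase gene RPS6KA1 at -0.56 ± 0.06.

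In sensitive cells given GNE-7883, in which ETV4 and ETS1 fell, 6 of the 16 ERK output genes rose and 5 fell, with a median log2 change of 0.03. Both counts are near the shares over all genes, 29.8% higher and 28.4% lower. DUSP6 rose by 2.07 ± 0.11 and SPRY4, another feedback inhibitor, by 1.37 ± 0.068, whereas DUSP5 fell by 1.62 ± 0.092 and FOSL1 by 1.62 ± 0.075. The rise of DUSP6 was from 1.49 to 6.30 CPM. In resistant cells 3 of the 16 rose and 3 fell, against 5.25% higher and 3.97% lower over all genes. DUSP6, SPRY1 and SPRY4 rose by 0.29, 0.92 and 0.33, and DUSP5 and FOSL1 were among those that fell, at -0.95 and -0.54. SPRY1 was low in resistant cells, at 0.944 CPM in DMSO and 1.77 CPM in GNE-7883. The TEAD targets CCN2 and CCN1 give the drug's own reference. CCN2 fell by 2.92 ± 0.061 in sensitive and by 0.56 ± 0.052 in resistant cells, and CCN1 fell by 1.31 ± 0.046 and by 0.34 ± 0.045.

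Genes described as ETS targets were also listed. In DMSO 24.2% of all genes were higher and 24.4% lower in resistant cells. Of 17 targets that could be tested, 13 were higher and none lower there, with a median of 0.69. The matrix metalloproteinase genes MMP2 and MMP9 were higher by 1.57 ± 0.083 and 1.29 ± 0.21, and the urokinase receptor gene PLAUR by 0.81 ± 0.078. MMP2 and MMP9 were low in sensitive DMSO, at 4.11 and 0.511 CPM, against 12.2 and 1.25 CPM in resistant DMSO. Between the lines in GNE-7883, 30.7% of all genes were higher and 31.1% lower in resistant cells. Of the 17 targets 5 were higher and 4 lower in that comparison, with a median of 0.02. In sensitive cells given GNE-7883, in which ETV4, ETS1 and ETS2 fell, 29.8% of all genes rose and 28.4% fell. Of these targets 12 rose and 2 fell, with a median of 0.62. The largest rises were those of MMP9 (3.14 ± 0.18), PTGS2 (3.08 ± 0.27), MMP1 (2.77 ± 0.21) and MMP2 (2.75 ± 0.081), of which only MMP2 passed 5 CPM. In resistant cells 4 of the 17 rose and 1 fell, against 5.25% higher and 3.97% lower over all genes. Of 10 immediate early genes near SRF and ELK-type factors, 7 were higher and none lower in resistant cells in DMSO. FOSB was at 1.21, EGR1 at 0.95, ATF3 at 0.86 and MCL1 at 0.54 on the log2 scale. FOSB and EGR1 were low, at 0.797 and 1.01 CPM in sensitive DMSO and at 1.81 and 1.97 CPM in resistant DMSO. In sensitive cells GNE-7883 raised 7 and lowered 1 of these 10 genes. Between the lines in GNE-7883, 3 of them were higher and 4 lower in resistant cells, with a median of -0.05.

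**Figure D4:**
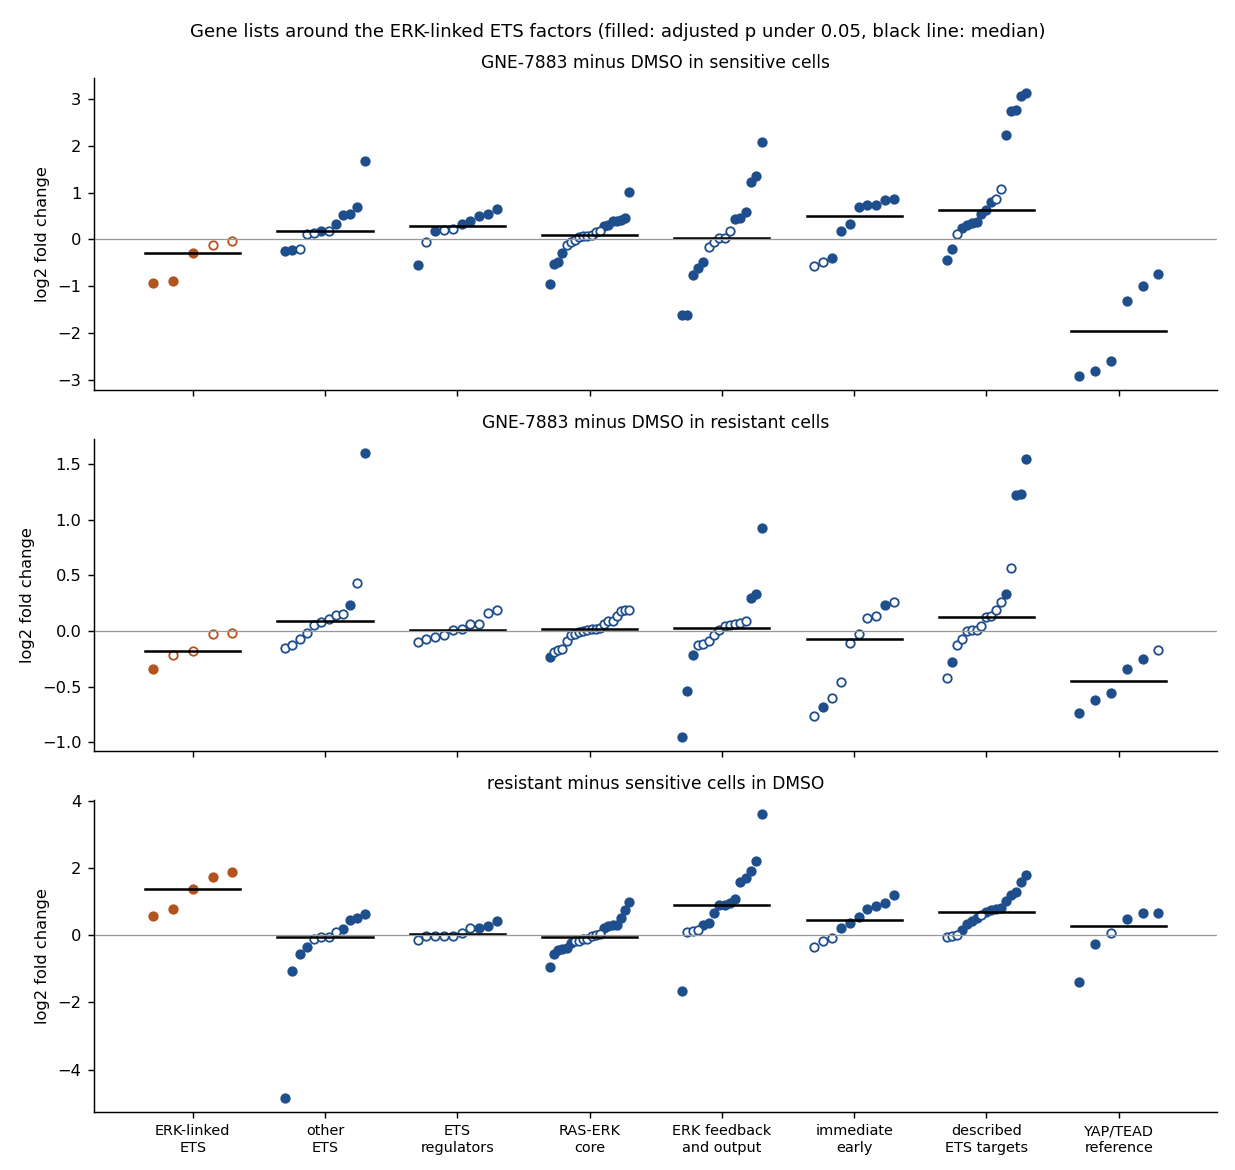
Log2 fold changes of the ETS genes and of the genes of each pathway list in 3 comparisons, 1 panel each; points are genes (filled: adjusted p under 0.05), black lines are medians, and the y ranges differ between panels. In resistant against sensitive cells in DMSO the ETS genes (median 1.38) and the ERK output genes (median 0.90) lie mostly above 0, while the RAS to ERK cascade (median -0.07) is spread around it.

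Genes whose levels followed each factor were sought over the 12 libraries, as a description. These libraries share 2 lines and 2 treatments, so they are not independent points. Among 10712 genes, the level of ETV4 was most like that of PACSIN2 (Pearson r = 0.996), RPS6KA2 (0.996), WNK4 (0.995), RGS4 (0.994) and TCAF2 (0.994). RGS4, which dampens G-protein signalling, went from 65.0 CPM in sensitive DMSO to 12.6 in GNE-7883 and was at 819 and 683 CPM in resistant cells. ETV5 was most like SLC8A1 (0.998), BEND7, SNAI2, HMGA2 and NLRP1. SNAI2 encodes the mesenchymal factor Slug and was at 5.33, 5.82, 66.4 and 56.2 CPM over the groups in the same order. ETS1 was most like CALU (0.998), E2F7, NCEH1, CKAP2L and HNRNPR. ETS2 was most like TEX2 (0.994), FIGNL1, NET1, PDCD1LG2 and RPS6KA2, the last also in the set of ETV4. ELK3 was most like ABCG2 (0.998), PHLDA1, SLC8A1, DUSP4 and FAM171A1. ABCG2, a drug efflux pump, was at 8.46, 6.78, 149 and 166 CPM. Among the factors themselves r ran from 0.862 for ETS1 with ETV5 to 0.995 for ELK3 with ETV5.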

How the data were processed

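RNA sequencing covered 12 libraries of NCI-H226 and NCI-H226_CL3, 3 in each of 4 groups, single-end 50-base reads, on average 56 M per sample per the labels. The authors deposited a table of raw counts per gene and a table of RPKM for the same genes. The submitters' processing notes name GSNAP, limma and GRCh38.p10 without their roles; how reads were counted, and with which strand setting, is not given in the sources used here. Of 58302 genes, 18035 passed edgeR's filterByExpr and entered a quasi-likelihood fit of the counts over all libraries (edgeR 4.0.16, R 4.3.3, scaled by TMM, 8 residual degrees of freedom), with two-sided tests, Benjamini-Hochberg adjustment and a threshold of 0.05. Standard errors are the log2 fold change, unsigned, over the square root of F. All other edgeR results use this fit unless a filter is named. Counts of ETV1 were compared with an exact conditional interval. The fit was tested on simulated data. Alternatives were DESeq2 1.42.0, limma voom (limma 3.58.1), other scalings and filters, the groups compared only, each library left out, and the RPKM table. Symbols and coordinates came from GENCODE 29. Log2 CPM used for likeness had a prior count of 2. From each list, at most 4 called genes with the largest change and at least 1 CPM in a group are named, plus DUSP6, SPRY4, CCN1, CCN2, CIC, ERF and SRF, and 5 genes most like each factor among those at 5 CPM or more. Some items that this rule names are not reported here. The genes, lists and tests were chosen with earlier results of these data known.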

Additional observations from a re-analysis of the deposited data

Results flagged for a closer look

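The response to GNE-7883 differed between the lines, by the interaction test over all genes, for 3 of the 5 ETS factors tested and 5 of the 7 pathway reference genes considered (DUSP6, SPRY4, CCN1, CCN2, CIC, ERF and SRF). Other listed genes, which were not considered for this purpose, also passed that test. The differences (resistant minus sensitive, log2) were 0.71 for ETV4, 0.55 for ETS1 and 0.29 for ETS2. These 3 fell in sensitive cells, while in resistant cells only ETS1 was called. For SRF the difference was -0.28. For the feedback genes DUSP6 and SPRY4, which rose more in sensitive cells, it was -1.78 and -1.03. For the TEAD targets CCN1 and CCN2, which fell more in sensitive cells, it was 0.97 and 2.36. The share of all genes called in this test was 35.7%.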

How the results depend on the processing

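Of the alternative log2 fold changes of the 5 tested ETS factors, 576 kept their direction and their side of the threshold, 13 became called, 4 lost the call and 2 changed sign. The sign changed for ETS2 in resistant cells given GNE-7883, which was 0.0032 without resistant GNE-7883 replicate 1 and 0.0080 without replicate 3, in a range over all single omissions of -0.037 to 0.0080. The count of factors called there was 1, and 2 with a filter of 5 CPM, with only the groups compared, with limma voom and with DESeq2, where ETV5 was called (adjusted p = 0.0499, 0.0216, 0.0408 and 0.0277). Leaving out 1 library at a time gave 0 to 3 called factors and 854 to 3060 called genes: 3 factors and 3060 genes without sensitive DMSO replicate 2, and 0 factors with 861, 950, 984 and 854 genes without resistant DMSO replicates 1 and 3 and resistant GNE-7883 replicates 1 and 3. In sensitive cells 3 to 4 factors were called, ELK3 being called without sensitive DMSO replicate 2 and without each of the 6 resistant libraries. The counts in the other comparisons were 5, 5, 5 and 3, and 6 in the line comparisons with no filter, when ETV1 was called. On RPKM the ratio of resistant to sensitive means was 3.50 and 3.19 for ETV5 in DMSO and GNE-7883. Changes of scaling moved the median of all genes by at most 0.032. A pairing of the samples by library number was not shown: 5 of 18 same-numbered pairs had deviations correlated above 0.1 (-0.58 to 0.54). Of 12 libraries, 2 correlated best with their own number. With 3 libraries per group these values cannot exclude a pairing. A replicate block left the factors called at 3, 1, 5, 5, 5 and 3 and the genes called at 10305, 1372, 8594, 11050, 8329 and 6211, in the order sensitive response, resistant response, lines in DMSO, lines in GNE-7883, resistant GNE-7883 against sensitive DMSO, and interaction. Depth limits ETV1 alone among the factors.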

Other observations

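Among the markers of other cell types, the endothelial receptor genes KDR and TIE1 moved in opposite directions. KDR, the VEGF receptor, went from 54.5 to 185 CPM in sensitive cells given GNE-7883 and was lower in resistant cells in DMSO by a log2 difference of -1.35 ± 0.085 (edgeR adjusted p = 2.16e-09). TIE1 went from 35.1 to 18.3 CPM and was higher in resistant cells by 0.85 ± 0.077 (adjusted p = 1.74e-07). TIE1 thus had the direction of ETV4, ETS1 and ETS2 in both comparisons, and KDR the opposite one. VWF, another endothelial marker, had neither pattern, with log2 values of -0.68 ± 0.19 for the drug and -1.40 ± 0.20 between the lines. Of 6 endothelial markers tested, 2 rose and 2 fell in sensitive cells given GNE-7883, against 29.8% higher and 28.4% lower over all genes. In DMSO 1 was higher and 2 were lower in resistant cells, against 24.2% and 24.4% of all genes.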
